A study of Mus musculus with 5 samples.

Results

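Very broad accessible regions were examined in the anterior forelimb bud of the mouse embryo, where ATAC-seq maps open chromatin by the cuts of a transposase. Peaks of all 5 libraries on chromosomes 1 to 19 were merged wherever they shared 1 bp, which gave 85522 regions. A region was taken as very broad where each of the 2 control libraries held a single peak interval of at least 2000 bp in it. The rule found 1498 regions, 1.75% of all regions and 3.37% of the 44386 regions with a peak in both controls. They spanned 4.64 Mb of the 59.5 Mb that all regions covered. The regions were thus chosen by their control widths, which are given as a description and support nothing by themselves.

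The mutant group was 3 embryos of genotype PrxCre/+;Smarcc1c/c, and the control group was 2 embryos of genotype Prx+/+;Smarcc1c/c. Both groups were homozygous for the conditional Smarcc1 allele and differed in Cre, and all were at E11.5 with 40 to 48 somites. Each library was made from 50K cells of the anterior part of 1 embryo's forelimb pair. Prx-Cre acts in limb mesenchyme, so ectoderm, vessels, blood and other cells of the bud keep Smarcc1. A narrower peak in bulk tissue cannot separate fewer open cells from less opening per cell. Libraries are numbered in the order of their records, and the numbers pair nothing.

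Most promoters of widely used and developmental genes lie in CpG islands, stretches of DNA rich in unmethylated CpG that are kept clear of nucleosomes. Open stretches that run on for kilobases are known at such promoters, at compact genes that are open from end to end, and at clustered regulatory elements of genes that set cell identity. The BAF (SWI/SNF) complex slides and evicts nucleosomes, and Smarcc1 encodes BAF155, one of its core scaffold subunits. The series asks whether BAF takes part in repression by the GLI proteins, the transcription factors at the end of Hedgehog signalling, in the anterior limb where GLI3 acts mainly as a repressor. The start of Smarcc1 itself held a peak in each library, with widths of 1770, 1453 and 1161 bp in mutants 1, 2 and 3 and 1545 and 1455 bp in controls 1 and 2. It was not among the very broad regions, and a peak there says nothing on whether the conditional exons were lost.

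The bases just before the gene start show what kind of promoter these regions hold. The sequences below are the 200 bases upstream of the annotated start, 5′ to 3′ on the strand of the gene, from RefSeq on GRCm38.p6, with each CpG in capitals. Jun and Junb, 2 of the widest control regions, and Atoh1, whose region was among those narrowest in the mutants relative to the controls, have many CpG. Prrx1, whose region ranked very differently by peak fold in the mutant lists and in the control lists, has few CpG before its start. Krt14, an ectoderm keratin gene without a very broad region, is given for contrast.
Jun, chr4:95052223-95052422, minus strand: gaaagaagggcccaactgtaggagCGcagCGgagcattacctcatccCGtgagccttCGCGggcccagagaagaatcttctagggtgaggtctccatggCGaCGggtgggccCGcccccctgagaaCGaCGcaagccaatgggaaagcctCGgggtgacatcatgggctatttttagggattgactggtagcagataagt
Junb, chr8:84978749-84978948, minus strand: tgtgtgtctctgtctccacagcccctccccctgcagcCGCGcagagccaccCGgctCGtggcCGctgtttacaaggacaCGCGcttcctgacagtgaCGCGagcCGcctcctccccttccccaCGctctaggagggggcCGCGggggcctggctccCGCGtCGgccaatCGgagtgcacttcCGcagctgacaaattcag
Atoh1, chr6:64728925-64729124, plus strand: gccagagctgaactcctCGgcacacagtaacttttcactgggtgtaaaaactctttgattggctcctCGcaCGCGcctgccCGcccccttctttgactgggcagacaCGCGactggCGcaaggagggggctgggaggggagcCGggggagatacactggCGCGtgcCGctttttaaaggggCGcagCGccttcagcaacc
Prrx1, chr1:163313651-163313850, minus strand: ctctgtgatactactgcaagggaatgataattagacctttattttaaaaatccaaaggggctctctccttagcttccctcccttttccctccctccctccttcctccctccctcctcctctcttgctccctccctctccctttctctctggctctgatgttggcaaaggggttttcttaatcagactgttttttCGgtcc
Krt14, chr11:100206031-100206230, minus strand: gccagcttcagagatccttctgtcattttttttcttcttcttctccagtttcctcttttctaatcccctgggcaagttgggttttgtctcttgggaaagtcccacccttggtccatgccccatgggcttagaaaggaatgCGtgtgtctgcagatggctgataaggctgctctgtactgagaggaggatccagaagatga

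The Junb stretch holds 18 CpG, the Atoh1 stretch 14 and the Jun stretch 11, while the Prrx1 and Krt14 stretches hold 1 each. Over whole promoter windows, which run from 250 bases before to 50 bases after a start, 1538 windows of 1231 genes lay in the very broad regions. Their median CpG observed over expected ratio was 0.833, against 0.586 over all 20085 windows of the table. At a ratio of at least 0.6, 85.0% of the windows in very broad regions were CpG-rich (95% exact binomial interval 83.2 to 86.8%), 83.7% of those in regions from 1000 bp to just under 2000 bp in the narrower control, and 4.38% of windows with no region. The very broad regions thus stood close to the next narrower class, and 74.2% of windows in all other regions of both controls were CpG-rich. Of the genes printed above, the windows of Junb and Atoh1 passed the cut of 0.6, at 0.666 and 0.840. Those of Jun and Prrx1 fell below it, at 0.594 and 0.360, so Jun did not count as CpG-rich by this measure.

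Short promoter motifs were counted in the same windows on both strands, as a description of the letters only. The GC box GGGCGG, a binding sequence of SP factors, occurred in 78.7% of the windows in very broad regions and 47.0% of all windows. In the windows of very broad regions and in all windows, the TATA box letters TATAAA occurred in 5.46% and 12.7%, and CCAAT in 38.0% and 38.1%. Likewise the E-box CACGTG occurred in 10.99% of the windows in very broad regions and 7.89% of all windows. The GLI site GACCACCCA was present in 4 windows in very broad regions (0.260%) and 35 of all windows (0.174%). In regions from 1000 bp to just under 2000 bp the shares were close to those of the very broad regions, at 72.5% for the GC box, 4.96% for TATAAA and 10.6% for the E-box. CpG-rich windows hold more GC boxes by their letters alone, and no motif is read as a bound site.

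Across whole lists, the number of broad peaks was lower in mutants 1, 2 and 3 than in either control. Peaks of at least 2000 bp numbered 1439, 1594 and 532 in mutants 1, 2 and 3, against 2525 and 1795 in controls 1 and 2. The mutants averaged 1188 ± 574 and the controls 2160 ± 516 (SD, n = 3 and 2), 45.0% lower (exact two-sided permutation test over libraries, p = 0.2, the smallest value that 3 against 2 libraries can give). List lengths differed as well, with 35988, 42185 and 26581 peaks in the mutants against 68009 and 59252 in the controls. As a share of its own list, broad peaks made up 4.0, 3.78 and 2.00% in the mutants, against 3.71 and 3.03% in the controls. These shares overlapped, at 3.26 ± 1.10% and 3.37 ± 0.48% (exact two-sided permutation test, p = 1). The difference of the shares was -0.11 points, and it turned positive at a width of 1500 bp (0.50), without mutant 3 (0.52) and without control 1 (0.23). With every list shortened to equal length it was -3.63 points (exact two-sided permutation test, p = 0.2). Lists of equal length make the share a restatement of the number of broad peaks. The size and the sign of the difference thus depended on the setting.

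**Figure D1:**
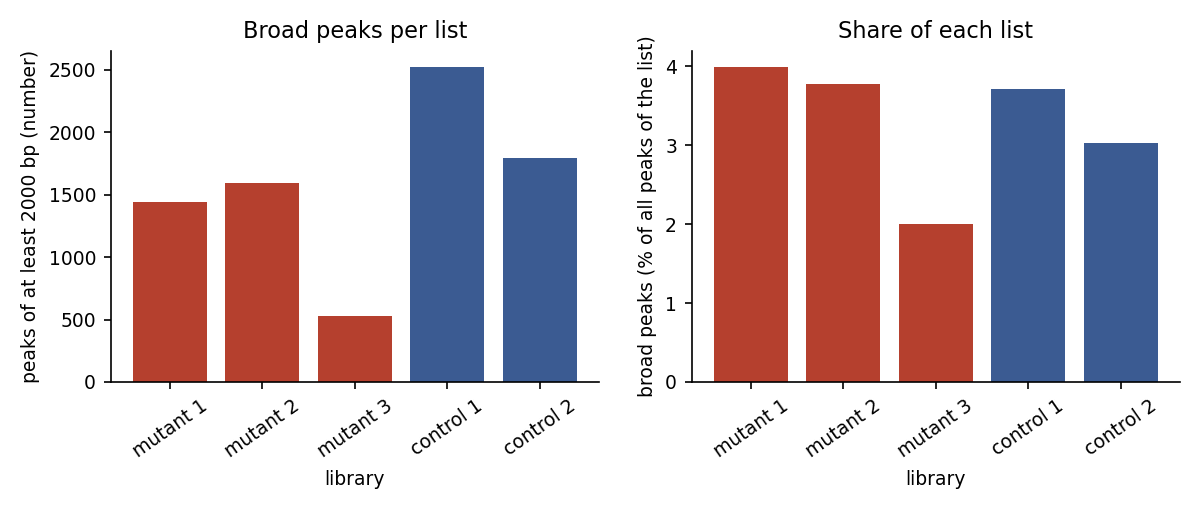
Number of peaks of at least 2000 bp in each library (left) and their share of the library's list in percent (right), with mutants before controls and 1 bar per library. The numbers lie at 532 to 1594 in the mutants and 1795 to 2525 in the controls, and the shares overlap at 2.00 to 4.0% and 3.03 to 3.71%.

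Nearly all very broad regions were still called in the mutants. A peak was present in 1498 of 1498 regions in mutants 1 and 2 and in 1493 in mutant 3. All 3 mutants thus held a peak in 99.7% of them, against 43.1% of all regions in both controls and 92.9% of regions from 1000 bp to just under 2000 bp. The 5 regions without a peak in mutant 3 lay near Tha1, within Bcl11b, near Ccdc188, at Nes and within Smad6. Nes, which encodes the intermediate filament nestin, had widths of 1654 and 2135 bp in mutants 1 and 2, against 2101 and 2369 bp in the controls.

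The widest interval in these regions was shorter in the mutants, mostly so in mutant 3. Its median over the regions was 2234, 2282.5 and 1693 bp in mutants 1, 2 and 3, against 2556 and 2415 bp in controls 1 and 2. The means of these medians were 2070 ± 327 bp and 2486 ± 99.7 bp (SD, n = 3 and 2), a difference of -415.7 bp, or -227.2 bp without mutant 3. An interval of at least 2000 bp was kept in 71.5, 74.0 and 31.6% of the regions in mutants 1, 2 and 3. Some fall below the threshold follows from the rule, which asked for that width in the controls and in no mutant.

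Regions shared by all libraries were shorter in the mutants by about as much as the very broad ones. On the log2 scale the mean mutant width minus the mean control width had a median of -0.28 in the very broad regions, -0.26 in regions from 1000 bp to just under 2000 bp and -0.27 in all 19128 regions with a peak in all 5 libraries. With mutants 1 and 2 alone the medians were -0.13 in the very broad regions and -0.16 in all shared regions. Of 1493 very broad regions with a peak in all libraries, 710 (47.6%) were narrower in each mutant than in both controls, against 36.8% of all shared regions. Ranked within its own list instead, the width was lower in every mutant for 49.2% of the very broad regions against 51.4% of all shared regions, and higher in every mutant for 10 regions, against a background of 0.549%. In regions from 1000 bp to just under 2000 bp, 42.8% were narrower in each mutant, and 58.5% were lower in every mutant by rank. By the first measure very broad regions stood above both backgrounds, and by the second below both. The rule asked for wide control intervals, which favours narrower mutants, so these shares are a description only.

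Some of the very broad regions stayed at or above the threshold in all 3 mutants, even where, as at Jun, they were narrower than in the controls. An interval of at least 2000 bp was found in all mutants at 415 regions, in 2 mutants at 543, in 1 at 322 and in none at 218. The 415 regions are 27.7% of the very broad regions, beside 0.973% of all regions in both controls, a background that holds mostly regions the rule had already left out as narrower. Mutants 1 and 2 together kept 910 regions (60.7%). By the rule, regions that started further above the threshold had more width to lose before they crossed it: 7.73% of the 375 regions with the narrowest mean control intervals and 48.4% of the 374 with the widest were broad in all mutants. Their median log2 width differences ran the other way, at -0.24 and -0.32. Conversely, of the 432 regions broad in all mutants, 415 were broad in both controls, 16 in 1 control and 1 in neither. That single region lay at Mgat1, an enzyme gene of N-glycan synthesis, with 2147, 2110 and 2165 bp in the mutants against 1982 and 1999 bp in the controls.

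**Figure D2:**
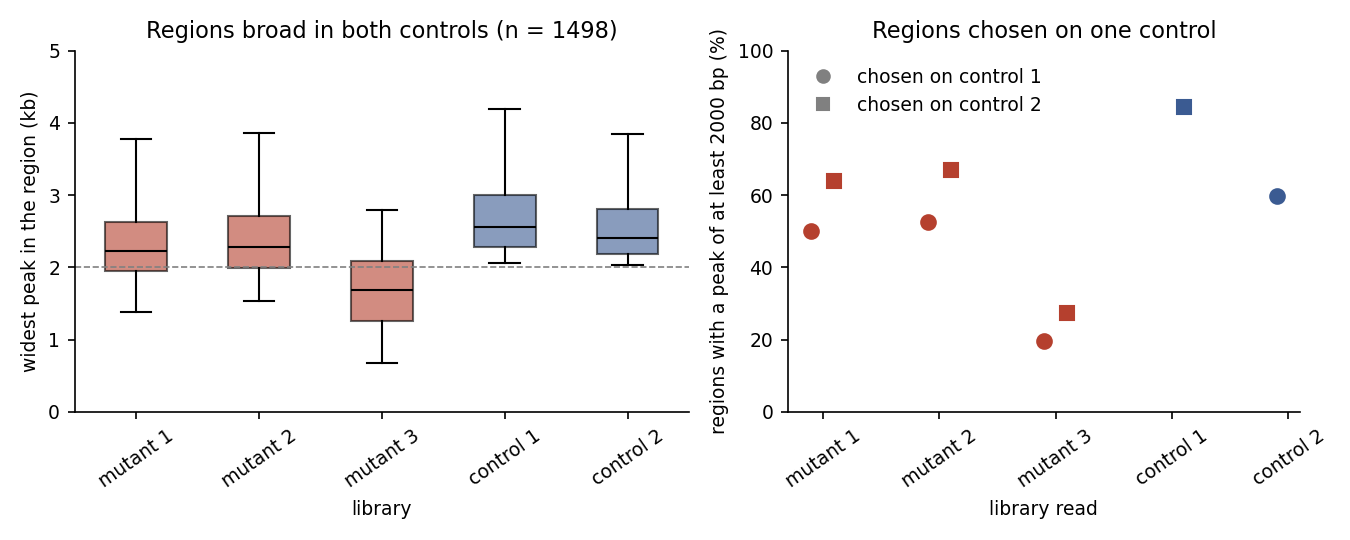
Left, widest peak interval in kb over the 1498 very broad regions in each library (line, median; box, quartiles; whiskers, 5 to 95 percentile; dashed, the 2 kb rule), with medians of 2234, 2282.5 and 1693 bp in mutants 1, 2 and 3 and of 2556 and 2415 bp in controls 1 and 2. Right, for regions chosen on 1 control alone, the percent with a peak of at least 2000 bp in each library not used for the choice, where mutant 3 lies lowest at 19.6 and 27.4%.

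The regions held a single peak less often in each mutant than in the controls, which had been chosen for a long single interval. The share of very broad regions with exactly 1 peak was 68.5, 69.9 and 52.9% in mutants 1, 2 and 3, against 84.0 and 80.7% in controls 1 and 2. Of 1099 regions with 1 peak in each control, 232 were split in mutant 1, 212 in mutant 2 and 435 in mutant 3. Of these, 504 (45.9%) were whole in all 3 mutants and 58 were split in all 3. With the choice resting on control 1 alone, its intervals held 2 or more peaks in 30.7, 26.5 and 40.4% of cases in the mutants, against 25.9% in the held-out control 2, so mutant 2 stood near the control. For intervals of control 2 the shares were 24.9, 22.2 and 41.6% in the mutants, against 13.6% in control 1. The summed length of all peaks in a region had a median of 2382.5, 2401.5 and 1962.5 bp in the mutants, against 2632 and 2510.5 bp in the controls. The difference of the group means was thus smaller for summed length (-322.4 bp) than for the widest interval (-415.7 bp). The splitting of peaks and the list length moved together across libraries, and the part of list length in these widths was not tested.

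Choosing on 1 control and reading the other put a control library on the same footing as the mutants. Of 2510 regions broad in control 1, 50.0, 52.5 and 19.6% were broad in mutants 1, 2 and 3, against 59.7% in control 2. Of 1776 regions broad in control 2, 64.0, 66.9 and 27.4% were broad in the mutants, against 84.3% in control 1. The held-out control was thus higher than each mutant in both directions, by a small margin over mutants 1 and 2 in the first. The base pairs of the chosen control intervals told the same order: peaks covered a median of 86.4, 87.6 and 68.5% of a control 1 interval in the mutants, against 90.5% in control 2. For control 2 intervals the cover was 91.97, 92.6 and 75.4% in the mutants, against 97.7% in control 1. Averaged over both choices, the median width in the mutants minus that in the held-out control was -373.2 bp, and -186 bp without mutant 3.

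Widths ranked alike in most libraries and less so in mutant 3. Over the 1498 regions, Spearman's rho of the widest interval was 0.67 between mutants 1 and 2 and 0.67 between controls 1 and 2. It was 0.56 between mutant 1 and either control, 0.62 and 0.61 between mutant 2 and controls 1 and 2, and 0.25 and 0.27 between mutant 3 and controls 1 and 2. These values describe regions that share their libraries and a width floor in the controls, and carry no test.

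Broad regions were also high in fold, the authors' enrichment of a peak over background, which is scaled within each list and not between lists. The median of the highest fold in the regions was 9.10, 10.2 and 7.91 in mutants 1, 2 and 3 and 11.1 and 10.2 in controls 1 and 2. Within its own list this placed the median region at the 91.9, 92.6 and 86.1 percentile in the mutants and the 95.4 and 93.6 percentile in the controls. The difference of -4.33 percentile points turned to 0.76 when lists were set to equal length. A lower percentile in every mutant than in both controls was found for 37.2% of the very broad regions, against 49.7% of all shared regions. A higher percentile in every mutant was found for 4 regions, against a background of 0.392%. Among the very broad regions themselves, width and fold in the controls had a Spearman's rho of 0.01 over 1498 regions, a description.

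By position, the very broad regions lay mainly at gene starts. A protein-coding gene end was within 1 kb of 1251 regions (83.5%, 95% exact binomial interval 81.5 to 85.4%), compared with 70.5% of regions from 1000 bp to just under 2000 bp and 30.6% of all regions in both controls. Of the others, 99 held an internal start of a gene, 20 the start of a noncoding gene, 65 lay in a protein-coding gene body and 63 outside protein-coding genes. An annotated start lay inside 74.3% of the 1463 regions outside chromosome 18, whose promoters were not used here. The share was 61.7% in regions from 1000 bp to just under 2000 bp and 23.0% in all regions in both controls. Of the regions with a start, 13.4% held starts on both strands, the arrangement of a bidirectional promoter. This compares with 10.6% in regions from 1000 bp to just under 2000 bp and 8.19% in all regions in both controls. The part of region length in these shares was not tested. Regions in gene bodies and outside genes had lower median log2 width differences (-0.43 and -0.42) than those at gene ends (-0.27). Of them, 15.4 and 20.6% against 28.9% were broad in all mutants. The shares narrower in every mutant than in both controls were 46.2 and 54.0%, against 47.9% at gene ends. The gap was largest in mutant 3, with median widths of 1376 and 1343 bp against 1726 bp at gene ends. In mutants 1 and 2 the medians were 2104 and 2089 bp in gene bodies and 2116 and 2031 bp outside genes. At gene ends they were 2251 and 2298 bp.

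Cover was carried further into the gene than away from it. At the 770 very broad regions with a single start, the interval over the start reached a median of 1204, 1283 and 805 bp downstream in mutants 1, 2 and 3, against 1452 and 1391.5 bp in controls 1 and 2. Upstream it reached 986.5, 981 and 815.5 bp in the mutants, against 1126 and 1067.5 bp in the controls. The downstream arm was the longer one in mutants 1 and 2 and in both controls, and the arms were nearly even in mutant 3. The start itself was under a peak in 98.7, 99.7 and 94.4% of these regions in the mutants, against 99.5 and 100% in the controls. At 1000 bp downstream, cover was 71.9, 76.1 and 48.7% in the mutants, against 84.4 and 80.6% in the controls. At the start the regions left little room to differ, and mutant 3 was lowest there too.

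**Figure D3:**
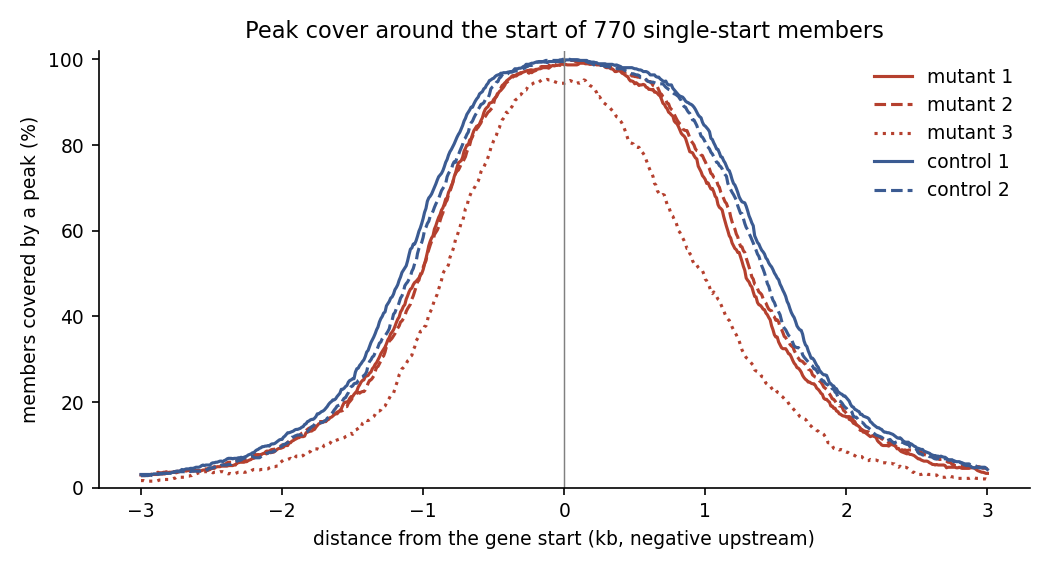
Share of the 770 very broad regions with a single gene start that a peak covers at each distance from the start, in percent against kb (negative is upstream), 1 line per library. All lines lie at 94.4 to 100% at the start, and at 1 kb downstream mutants 1, 2 and 3 lie at 71.9, 76.1 and 48.7%, below controls 1 and 2 at 84.4 and 80.6%.

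Gene lists with shared function differed widely in how often their members lay at a very broad region. Over all 20665 protein-coding genes of chromosomes 1 to 19, 7.55% had an end within 1 kb of one, and 28.9% of the regions there were broad in all mutants. Counts per list were 12 of 24 immediate early genes, 16 of 32 bHLH genes and 14 of 29 limb Hedgehog targets. Next came 15 of 36 RNA processing genes, 11 of 27 abundant housekeeping genes, 8 of 21 FGF pathway genes and 10 of 28 BAF subunit genes. Cytosolic ribosomal protein genes were at the low end with 4 of 73, below the share of all genes. The lists were picked with earlier results of these data known, so the counts describe these lists only. In most lists the width difference was larger in mutant 3 than in mutants 1 and 2. In mutant 2 the median log2 of a list ran from -0.32 (immediate early genes) to 0.07 (T-box genes and Hedgehog targets).

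**Figure D4:**
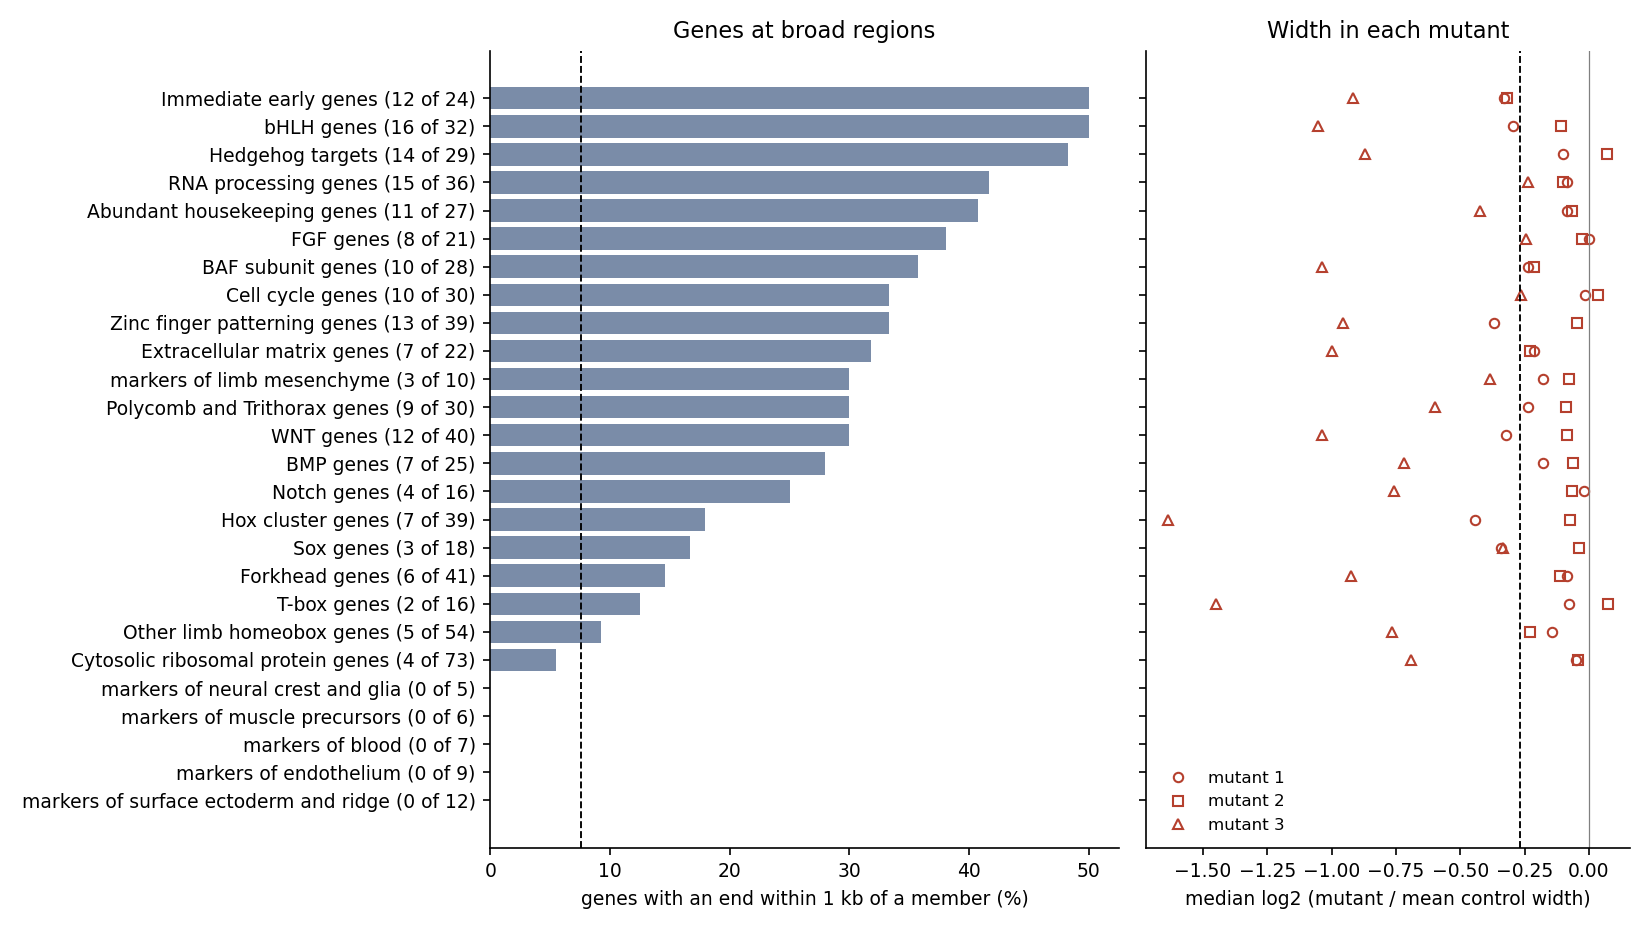
Left, share of each gene list with a gene end within 1 kb of a very broad region, in percent, with the count in brackets and a dashed line at 7.55% for all protein-coding genes. Right, median over the list's regions of the log2 of the widest interval in each mutant over the mean of the controls, where the dashed line at -0.27 is the median for all gene-end regions with the 3 mutants averaged, and mutant 3 lies lowest in most lists.

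Immediate early genes, which cells switch on within minutes of a stimulus, had some of the widest control regions. Of their 12 regions, 7 were narrower in each mutant than in both controls and 2 were broad in all mutants, beside 47.9% and 28.9% of all 1251 gene-end regions. The difference between these counts and those of other genes was not tested. Jun, a subunit of the AP-1 transcription factor, had intervals of 4103, 4140 and 4005 bp in mutants 1, 2 and 3, against 6726 and 6370 bp in controls 1 and 2. All 3 mutants lay more than 2000 bp below both controls, and the region was cut into 3, 2 and 4 peaks in the mutants against 1 in each control.
Junb, a second AP-1 subunit, had 3640, 1917 and 1138 bp in the mutants, against 6041 and 5794 bp in the controls. Klf6, a zinc finger factor, had 1579, 1828 and 1600 bp in the mutants, against 3288 and 3275 bp in the controls. Klf6 and Egr1 were picked after their values were seen. Egr1, a growth-factor responsive zinc finger factor, had 2334, 2571 and 1989 bp in the mutants, against 4022 and 3758 bp in the controls. At each of these 4 genes the groups did not overlap, since mutants 1 and 2, like mutant 3, lay below both controls. Part of the difference was splitting: summed over all peaks, Jun had 5327, 4721 and 5745 bp in the mutants, against 6726 and 6370 bp in the controls. The summed length at Junb was 5520, 5030 and 3844 bp in the mutants, against 6041 and 5794 bp in the controls, so the groups stayed apart at both genes but lay closer together. Dusp1, a MAP kinase phosphatase, and Ccn1, a matrix protein gene, went the other way in mutants 1 and 2. Dusp1 had 2693, 2573 and 1811 bp in the mutants, against 2263 and 2264 bp in the controls, and Ccn1 had 3410, 3305 and 1229 bp in the mutants, against 3079 and 2756 bp in the controls. The list medians were -0.33, -0.32 and -0.92 on the log2 scale in mutants 1, 2 and 3, and control 2 differed from control 1 by -0.09. Over all gene-end regions the medians were -0.13, -0.12 and -0.58 in mutants 1, 2 and 3.

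Basic helix-loop-helix genes and the ID genes, whose products block bHLH dimers, held 16 regions, of which 9 were narrower in each mutant and 2 were broad in all mutants, beside 47.9% and 28.9% of all gene-end regions. Their list medians were -0.30, -0.11 and -1.05 in mutants 1, 2 and 3. Mycn, which drives proliferation of limb mesenchyme, had 3054, 5178 and 1055 bp in the mutants, against 5687 and 4736 bp in the controls. Mutant 2 lay between the controls, and the other two mutants lay below them. Id2 shows how the widest interval depends on splitting: it had 1749, 6894 and 1435 bp in the mutants and 6754 and 2194 bp in the controls, with 1 peak in mutant 2 and control 1 and 6 in each other library. Atoh1, a bHLH factor of neuronal precursors, had 468, 888 and 227 bp in the mutants, against 2498 and 2411 bp in the controls. Its groups lay far apart, with a log2 difference of -2.22 that mutant 3 did not make alone. The region was named for its low log2 difference, so a wide gap was set by that choice. Its mutant peaks were also weak, at the 36.6, 32.7 and 11.9 percentile of fold in mutants 1, 2 and 3. In controls 1 and 2 it stood at the 83.5 and 81.4 percentile.

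Hedgehog target genes of the limb lay at 12 regions, of which 6 were broad in all mutants and 3 were narrower in each mutant than in both controls. The shares of all gene-end regions were 28.9% and 47.9%, and the difference was not tested. Gli1, the direct target used as a readout of the pathway, had 4077, 4019 and 2573 bp in mutants 1, 2 and 3, against 4155 and 4114 bp in controls 1 and 2. Mutants 1 and 2 were close to the controls, and mutant 3 was lower. Sall1, a zinc finger gene, had 3675, 3663 and 2449 bp in the mutants, against 4893 and 4610 bp in the controls, with no overlap. Ccnd2, a D-type cyclin, had 6077, 5785 and 4414 bp in the mutants, against 6188 and 4992 bp in the controls. Hand2, a bHLH factor of the posterior limb bud, had 3495, 3507 and 952 bp in the mutants, against 3253 and 2917 bp in the controls, so mutants 1 and 2 lay above both controls. Grem1, a BMP antagonist, had 1898, 2051 and 1882 bp in the mutants, against 2159 and 2139 bp in the controls. The list medians were -0.10, 0.07 and -0.87 in mutants 1, 2 and 3, with mutant 3 by far the lowest. With the 3 mutants averaged the list median was -0.22, and no median without mutant 3 was taken for this list.

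All 3 Gli genes lay at very broad regions. Gli3, the main GLI repressor of the anterior limb, had 3470, 3741 and 2093 bp in the mutants, against 4089 and 3599 bp in the controls. Gli2, the main activator, had 2576, 3343 and 1905 bp in the mutants, against 3811 and 2174 bp in the controls. In both, mutant 2 lay between the controls and mutant 3 lay below them, so the groups were not apart.

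Signalling pathways of the limb bud were each represented. Among 8 FGF pathway genes, Fgf10, the mesenchymal ligand of limb outgrowth, had 3619, 3537 and 1472 bp in the mutants, against 3596 and 3381 bp in the controls. Dusp6, a feedback phosphatase of FGF signalling, had 2 regions, and at both every mutant lay below both controls. One had 3868, 3799 and 3960 bp in the mutants, against 5368 and 4012 bp in the controls. The other had 1632, 1981 and 1555 bp in the mutants, against 2435 and 2299 bp in the controls. The FGF list as a whole had medians of 0.00, -0.03 and -0.24 in mutants 1, 2 and 3. By these medians mutants 1 and 2 lay at the control level for this list. Of its 9 regions, 3 were narrower in each mutant than in both controls, beside 47.9% of all gene-end regions. Of 12 WNT genes, 6 were narrower in each mutant, near the 47.9% of all gene-end regions, and 2 were broad in all, beside 28.9%. Fzd2, a Wnt receptor, had 3567, 3689 and 2925 bp in the mutants, against 3781 and 3703 bp in the controls. Wnt5a, the ligand of directional limb growth, had 2906, 4704 and 757 bp in the mutants, against 4150 and 3140 bp in the controls. Of 7 BMP genes, 4 regions were broad in all mutants, and of 4 Notch genes, 2, beside 28.9% of all gene-end regions.

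Among patterning genes, 7 of 39 Hox, 3 of 18 Sox, 6 of 41 forkhead and 2 of 16 T-box genes lay at very broad regions (17.9, 16.7, 14.6 and 12.5%), as did 5 of 54 other limb homeobox genes (9.26%), beside 7.55% of all protein-coding genes. The 7 Hox genes shared 5 regions. The Hoxd10 and Hoxd11 region had 3452, 5145 and 2062 bp in mutants 1, 2 and 3, against 4578 and 3374 bp in controls 1 and 2. The Hoxd12 and Hoxd13 region, at the digit end of the cluster, had 3224, 1994 and 1056 bp in the mutants, against 3002 and 3555 bp in the controls. The Hox medians of -0.44, -0.07 and -1.63 spread widely among the mutants. Sox9, the master factor of cartilage, had 1267, 1240 and 1177 bp in the mutants, against 2253 and 2218 bp in the controls, a difference in which the 3 mutants were alike. The Sox9 region was cut into 3, 4 and 3 peaks in the mutants, against 2 in each control, and its summed length was 2745, 2539 and 2165 bp in the mutants, against 3152 and 3011 bp in the controls. Bcl11a, a zinc finger factor, likewise had 2969, 2477 and 2666 bp in the mutants, against 4418 and 4345 bp in the controls. Summed over its pieces Bcl11a had 4275, 3738 and 3972 bp in the mutants, against 4418 and 4345 bp in the controls, so most of its difference was splitting.

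BAF subunit genes, the family of the deleted gene, had 11 regions at 10 genes. Of these regions, 5 were narrower in each mutant, close to the 47.9% of all gene-end regions, and 2 were broad in all, beside 28.9%. Smarca2, which encodes the BRM ATPase, had 2 separate regions. One had 1293, 872 and 664 bp in the mutants, against 2833 and 2459 bp in the controls. The other had 646, 2012 and 363 bp in the mutants, against 2494 and 2171 bp in the controls. Neither region overlapped between groups, and in the second mutant 2 was close to control 2. Smarcc2, the paralogue BAF170, had 2432, 1957 and 957 bp in the mutants, against 2754 and 2283 bp in the controls. Arid2, a subunit of the PBAF form, had 4631, 4161 and 3423 bp in the mutants, against 3549 and 3539 bp in the controls, so 2 mutants were wider. Of 9 Polycomb and Trithorax genes, 4 were narrower in each mutant and 3 broad in all, near the 47.9% and 28.9% of all gene-end regions.

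Among the lists, cell cycle genes had the highest share of regions that stayed broad in all mutants. Of their 10 regions, 7 were broad in all mutants, beside 28.9% of all gene-end regions. Regions narrower in all 3 mutants at once than in both controls numbered 0, beside 47.9% of all gene-end regions, and the difference was not tested. The list medians were -0.02, 0.03 and -0.26 in mutants 1, 2 and 3. Cdk6, a G1 kinase, had 3553, 3616 and 2790 bp in the mutants, against 3729 and 2975 bp in the controls. E2f3, an activator of S-phase genes, had 3606, 3732 and 2941 bp in the mutants, against 3900 and 3337 bp in the controls. In both genes mutants 1 and 2 fell between the controls, and mutant 3 lay below both. Of 16 RNA processing regions, 7 were broad in all mutants, beside 28.9% of all gene-end regions, with medians of -0.09, -0.10 and -0.24. Hnrnpl, a splicing regulator, had 3272, 3392 and 3327 bp in the mutants, against 3438 and 3872 bp in the controls. Actg1, the cytoplasmic gamma actin, had 3360, 3875 and 3172 bp in the mutants, against 3788 and 3640 bp in the controls. A second region at Actg1 had 2642, 2823 and 2292 bp in the mutants, against 2474 and 3133 bp in the controls.

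**Figure D5:**
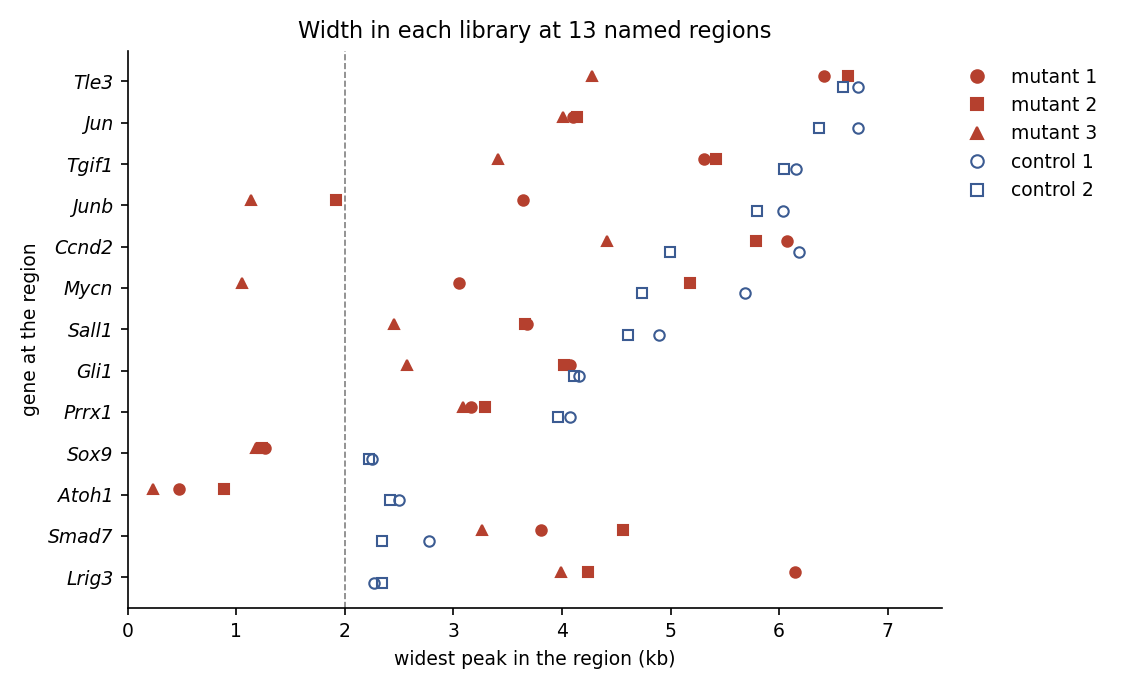
Widest peak interval in kb at 13 named very broad regions, mutants as filled and controls as open symbols, with a dashed line at the 2 kb rule. All mutants lie below both controls at Jun, Junb, Sox9 and Atoh1 and above both at Smad7 and Lrig3, while at Gli1 mutants 1 and 2 lie beside the controls.

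Among the cell type markers listed here, only some of limb mesenchyme lay at very broad regions. Of 10 mesenchyme markers, Prrx1, Twist1 and Pdgfra lay at one, while 0 of 39 markers of ectoderm, endothelium, blood, muscle precursors and neural crest did. Of those 39 genes, 25 had a region in both controls, and which cells those peaks came from was not tested. The share over all protein-coding genes was 7.55%, or 11.7% of those with a region. The marker lists are short, and Atoh1, a factor of neuronal precursors outside them, also lay at a very broad region. Twist1, a bHLH factor of mesenchyme, had 2255, 2420 and 1982 bp in mutants 1, 2 and 3, against 2432 and 2672 bp in controls 1 and 2. Pdgfra, a receptor of mesenchymal cells, had 3900, 3445 and 839 bp in the mutants, against 2188 and 2627 bp in the controls.

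Prrx1, a homeobox gene of limb mesenchyme, rose furthest by fold rank among the 1498 regions. Its highest peak had a fold of 22.7, 22.7 and 18.5 in mutants 1, 2 and 3, while that in controls 1 and 2 had 9.54 and 9.30. Ranked among the 1498 very broad regions within each list, it was number 2, 3 and 6 from the top in the mutants and number 1038 and 893 in the controls. Among the 19128 regions with a peak in all libraries, it ranked 10, 13 and 22 in the mutants and 5529 and 5004 in the controls. This measure was chosen after the values were seen. Its width went the other way, with 3164, 3294 and 3084 bp in the mutants against 4078 and 3966 bp in the controls.

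The high peak at Prrx1 lay over and upstream of the gene start. In mutants 1, 2 and 3 it ran from 2349, 2623 and 2335 bp upstream to 814, 670 and 748 bp downstream, with its summit 1015, 1046 and 1082 bp upstream. In controls 1 and 2 the widest interval ran from 2082 and 1972 bp upstream to 1995 and 1993 bp downstream, with its summit 1032 and 1268 bp upstream. Further downstream the mutants had a separate, weaker peak of fold 4.32, 4.27 and 3.70. The Prx-Cre transgene is driven by regulatory sequence from upstream of Prrx1, and reads from the transgene and from the gene's own locus cannot be told apart in these lists. Every mutant carries the transgene and neither control does, so the rank of this region also sorts the 5 libraries as their genotype labels do.

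The regions that differed most in width between the groups were mixed in position. The largest log2 difference, -2.96, was at a region 29.5 kb from the nearest protein-coding gene end, that of Mrpl23 (chr7:142570234-142573695, mm10). Noncoding genes were not part of that distance. It had 344, 636 and 200 bp in mutants 1, 2 and 3, against 3439 and 2699 bp in controls 1 and 2. Vldlr, a lipoprotein and reelin receptor gene, had 766, 878 and 407 bp in the mutants, against 2119 and 2883 bp in the controls. A region near Pnrc1, which encodes a nuclear receptor coactivator, had 520, 596 and 319 bp in the mutants, against 2055 and 2229 bp in the controls. At all 3 the groups did not overlap, which their choice by the lowest log2 differences largely set. Of the very broad regions with a peak in all libraries, 47.6% were narrower in each mutant than in both controls. By fold, Atoh1 ranked 1494, 1498 and 1484 of the 1498 regions in the mutants and 1399 and 1348 in the controls.

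Few regions were wider in the mutants. Only 5 regions (0.335%) were wider in each mutant than in both controls, against 0.91% of all shared regions. Lrig3, a membrane protein gene of growth factor signalling, had 6146, 4236 and 3995 bp in the mutants, against 2270 and 2341 bp in the controls. Summed over all peaks of the region, however, Lrig3 had 6146, 5515 and 5680 bp in the mutants, against 5760 and 5536 bp in the controls. Smad7, an inhibitor of BMP and TGF-beta signalling, had 3802, 4565 and 3259 bp in the mutants, against 2779 and 2344 bp in the controls. Its summed length was 4536, 4565 and 3259 bp in the mutants, against 4625 and 4500 bp in the controls, so the groups overlapped and mutant 3 was lowest.

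The 12 widest regions included developmental regulators, other genes such as Brd2, Tnrc18 and Marcks, and 2 places where the covered length was nearly the same in every library. Tle3, a Groucho corepressor, had 6416, 6635 and 4276 bp in the mutants, against 6729 and 6589 bp in the controls. Tgif1, a homeodomain repressor of TGF-beta signalling, had 5305, 5419 and 3409 bp in the mutants, against 6155 and 6048 bp in the controls. The region shared by Hjurp and Mroh2a was widest in mutant 3, with 3485, 5271 and 9212 bp in the mutants against 4555 and 6648 bp in the controls. It held 14, 5 and 4 peaks in the mutants and 8 in each control. An interval on chromosome 17 (chr17:39842874-39848952, mm10) that holds the ribosomal RNA pseudogene Rn18s-rs5 had 6071, 6072 and 6073 bp in the mutants, against 6076 and 6079 bp in the controls. Its fold was 42.9, 47.3 and 43.9 in the mutant lists and 48.9 and 41.8 in the control lists. The body of Sfi1 (chr11:3184203-3200141, mm10) had intervals of 15853, 13037 and 15895 bp in the mutants, against 13017 and 15898 bp in the controls. Summed over its 1 or 2 peaks, the Sfi1 region had 15853, 15739 and 15895 bp in the mutants, against 15701 and 15898 bp in the controls. Whether reads at these 2 places come from repeated copies elsewhere in the genome was not tested.

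Of all genes, 32 lay wholly inside a very broad region, among them Jun, Junb, Jund, Ier2, Id1, Id3, Gadd45g, Hoxd9, Rpl41 and the histone genes H1f2, H1f5, H1f10, H2ax and H2bc3. Some of these regions, such as those of Ier2, Jund and Hoxd9, held 2 or more peaks in every library, so lying inside a region does not mean that the whole gene was under a peak. Just inside the 2000 bp rule were Ppp3r1, Hlx and Hsp90b1, with a narrower control interval of 2000, 2001 and 2001 bp. Just outside it were Smad2, Fat1 and Elk3, with 1999, 1999 and 1998 bp.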

How the data were processed

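The 5 ATAC-seq libraries were grouped by the genotype in the labels. The submitters' processing notes name bcl2fastq 2.20.0, Bowtie2 2.3.5, MACS2 and the mm10 genome. The peak calling options, the handling of duplicates and any shift of cut sites were not given in the sources used here. Per the labels, each library has its own deposited list of peaks. Each deposited row gives other values (positions and summit in bp), a display score, a fold enrichment ratio, and a −log10 p-value and −log10 q-value. Fold is the authors' own value, scaled within a list, and was used to rank within lists. The deposited score was not used. Read depth is unknown, so peaks carry no counting interval, and exact intervals on shares of regions cover counting error only.

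Lists were merged, and the widest interval, summed length, highest fold and number of peaks were taken per region and library with Python 3.11.15, pandas 2.3.3, numpy 2.4.6, scipy 1.17.1 and matplotlib 3.10.9. Within-list percentiles rank a region's fold or width among its library's peaks. A region's genes were RefSeq protein-coding genes (GRCm38.p6, the mm10 coordinates) with an end within 1 kb. Gene lists held 652 symbols, of which 19 found no gene on chromosomes 1 to 19 (X-linked genes or older names).

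Library counts were compared by the difference of group means, with an exact permutation p (two-sided). The p-values measure the spread between single embryos. The regions, lists and rules were chosen with earlier results of these data known. The merge and the test were tested on simulated data. Alternatives changed the width threshold, the q-value floor, list length, the distance to genes and the libraries used.

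Genes were named by rule: the 12 widest regions by control mean, the 6 lowest and 6 highest by log2 width difference, up to 4 genes with the widest region per list, regions missing from a mutant, and 3 regions on each side of the threshold. Not all of these are printed. Klf6, Egr1, Dusp1, Hand2, Grem1, Gli2, Gli3, Smarca2, Smarcc2, Ccn1, the Mgat1 region and the genes lying inside a region were added after their values were seen.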

Additional observations from a re-analysis of the deposited data

How the results depend on the processing

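The width threshold set how many regions were taken: 4240 at 1500 bp and 554 at 2500 bp, against 1498 at 2000 bp, and 1498 to 2513 with 1 library left out, the highest without control 2. The difference of the broad peak share, mutants minus controls, turned from -0.11 to 0.50 points at 1500 bp, was -3.63 with lists at equal length and ran from -0.48 to 0.52 with 1 library left out. The share of regions broad in all mutants ran from 16.9 to 60.8% with 1 library left out, the highest without mutant 3, and was 54.8% when the same number of widest peaks was taken per list, against 27.7%. The fold percentile difference turned from -4.33 to 0.76 with lists at equal length. The gene-end share was 80.3% at 1500 bp and 86.6% at 2500 bp, 81.5% within 0.5 kb and 85.4% within 2 kb, and 79.3 to 83.4% with 1 library left out. The cause of these shifts was not tested. The direction held for broad peaks per library (9 alternatives), width in the regions (13) and held-out width (7). Gene lists (2) and promoter CpG (1) stayed alike as well. The rule favoured narrower mutants in the regions at every setting, so the 13 alternatives add no support there. For broad peaks every mutant lay below every control, so leaving out 1 library could not turn the sign. The exact permutation p for broad peaks cannot fall below 0.2, and is 0.333 or 0.5 at its smallest with a library left out. No paired analysis was possible because the labels give no replicate numbers, and those used here follow record order. Unknown read depth limits every width, since a peak's edge depends on it.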
